A study of Mus musculus with 2 samples.

Results

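Glutathione S-transferase mRNAs were measured in single mouse liver cells. The 10 genes were chosen by symbol, out of 32285 genes in the deposited matrix: Gsta2, Gsta3 and Gsta4 of the alpha class, Gstm1, Gstm2, Gstm3 and Gstm6 of the mu class, Gstp1 of the pi class, Gstt1 of the theta class and Gstz1 of the zeta class. The labels give 1 sample of genotype Cebp KO and 1 of genotype Cebp WT, both from livers of mice on a 40% HFCFD, a diet high in fat, cholesterol and fructose, for 2 weeks. Per the study's methods, the knockout combined Albumin-cre, which is active in hepatocytes, with floxed Cebpa on a C57BL/6N background, and male mice were used. The sources used here do not give age or say whether a sample pooled animals. Both samples share 1 matrix in which each barcode ends in suffix 1 or 2, and no label ties a suffix to a genotype. Values are therefore given for 2 unassigned libraries, without a test, because each library is 1 sample and cells are not replicates. Every interval covers counting error only.

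Glutathione S-transferases join glutathione to reactive or foreign compounds, which makes these more soluble and prepares them for export from the cell. The liver is the main site of this second phase of detoxification, and hepatocytes carry much of it. Many of the genes hold antioxidant response elements bound by NRF2, a factor released from KEAP1 under oxidative or electrophilic stress. The classes differ in their substrates: the alpha class takes products of lipid peroxidation and steroids among others, and the zeta class enzyme works in tyrosine breakdown.

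The 4 mu class genes lie in 1 tandem cluster of 7 Gstm genes at chr3:107895821-108044894 (GRCm38, GENCODE release M21), and the other 6 are on chromosomes 1, 9, 10, 12 and 19. RefSeq promoter windows on GRCm38.p6, from 250 bases before to 50 after a start site, were found for 9 of the 10 genes, as 13 windows in all, with none listed for Gsta4. The core of the antioxidant response element, TGACNNNGC, was searched on both strands and was present in 1 of the 13 windows, that of Gsta3, against 12.4% of all 32851 windows. A C/EBP type motif, TTGCNNAA on either strand, was present in 3 of the 13, those of Gsta3, Gstm2 and Gstt1, against 10.8% of all windows. A match is a description of the letters and was not tested as a binding site. The windows of these 3 genes are shown because they hold the matches, and that of Gstm3 because this gene differed most of the 10 between the libraries and its window held neither. Capitals mark a motif match. The lines give Gsta3 at chr1:21240335-21240634 on the plus strand, and on the minus strand Gstm2 at chr3:107986371-107986670, Gstt1 at chr10:75797682-75797981 and Gstm3 at chr3:107969125-107969424.
Gsta3: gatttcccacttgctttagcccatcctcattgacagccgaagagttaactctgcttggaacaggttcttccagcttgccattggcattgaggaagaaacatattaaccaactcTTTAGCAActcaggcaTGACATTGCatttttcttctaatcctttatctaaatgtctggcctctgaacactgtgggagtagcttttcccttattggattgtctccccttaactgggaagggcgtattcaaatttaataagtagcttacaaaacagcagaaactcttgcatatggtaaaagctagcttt
Gstm2: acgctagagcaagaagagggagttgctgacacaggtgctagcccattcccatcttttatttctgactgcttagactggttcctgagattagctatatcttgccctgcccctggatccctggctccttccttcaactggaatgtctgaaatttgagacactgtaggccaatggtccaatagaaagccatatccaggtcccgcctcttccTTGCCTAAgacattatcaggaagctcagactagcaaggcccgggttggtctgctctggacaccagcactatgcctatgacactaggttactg
Gstt1: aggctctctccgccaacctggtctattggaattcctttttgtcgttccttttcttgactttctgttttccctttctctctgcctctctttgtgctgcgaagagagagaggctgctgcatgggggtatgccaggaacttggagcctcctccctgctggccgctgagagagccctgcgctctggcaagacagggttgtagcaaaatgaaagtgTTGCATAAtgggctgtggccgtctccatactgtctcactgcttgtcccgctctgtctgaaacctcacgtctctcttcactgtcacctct
Gstm3: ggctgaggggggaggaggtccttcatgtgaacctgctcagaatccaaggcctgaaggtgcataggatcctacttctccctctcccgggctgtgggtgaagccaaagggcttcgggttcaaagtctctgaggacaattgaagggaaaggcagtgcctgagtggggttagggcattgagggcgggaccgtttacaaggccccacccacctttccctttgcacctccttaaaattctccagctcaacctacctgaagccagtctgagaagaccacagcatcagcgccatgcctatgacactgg
In the Gsta3 window the C/EBP type match began at base 114 and the antioxidant response match at base 130, and they did not overlap. The Gstm2 and Gstt1 matches began at bases 209 and 212 of their windows.

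Of 17313 barcodes with suffix 1 and 15003 with suffix 2, filters on depth and mitochondrial share kept 11617 and 6088. Hepatocyte droplets were those in which 12 hepatocyte markers such as Alb made up at least 5% of UMIs and no other cell type gate was passed, and they numbered 9022 and 3881. Deep hepatocytes, with at least 5000 UMIs, numbered 566 and 507, and all 12 markers were detected in them, at a summed 105384 and 112656 CPM (UMIs of a gene per 1000000 UMIs). The deep cells were deeper with suffix 1 (median 26239 UMIs) than with suffix 2 (12785), and their median mitochondrial share was 16.7% and 15.7%. The hepatocyte marker share lay between 4% and 6%, close to the limit, in 141 of 1788 and 89 of 1534 kept droplets of that depth. The libraries shared 81 barcode sequences, of which 34 were kept in both and 0 were deep hepatocytes in both. Cebpa, the floxed gene per the study's methods, had 1.26 CPM with suffix 1 and 110 CPM with suffix 2 in deep hepatocytes. This value was not used to assign a genotype to either library.

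In deep hepatocytes the 10 genes together made up 2844 CPM with suffix 1 and 2709 CPM with suffix 2, or 71.6 and 39.9 UMIs per cell. At a mitochondrial limit of 10% the sums were 5140 and 4710 CPM, and after the CPM of B cells was subtracted they were 1171 and 1787 CPM, with suffix 2 then the higher. This subtraction takes the same share of UMIs from every cell. Deep cells had a median of 26239 and 12785 UMIs, and B cells of 3726 and 3185.5. It therefore removes more molecules per deep cell than a B cell held, where the sum was 7.48 and 3.54 UMIs. Single genes ranged from 3.22 to 1144.5 CPM. Gsta3 was highest in both libraries, followed by Gstm1. Gstp1 came before Gstz1 with suffix 1 and after it with suffix 2, and Gstm2 with suffix 1 and Gstm3 with suffix 2 were lowest. Each molecule is counted once at its 3' end, so these levels can be set beside each other without scaling to transcript length, except that Gstp1 and Gsta2 share much of their 3' ends with related genes and may be undercounted.

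**Figure D1:**
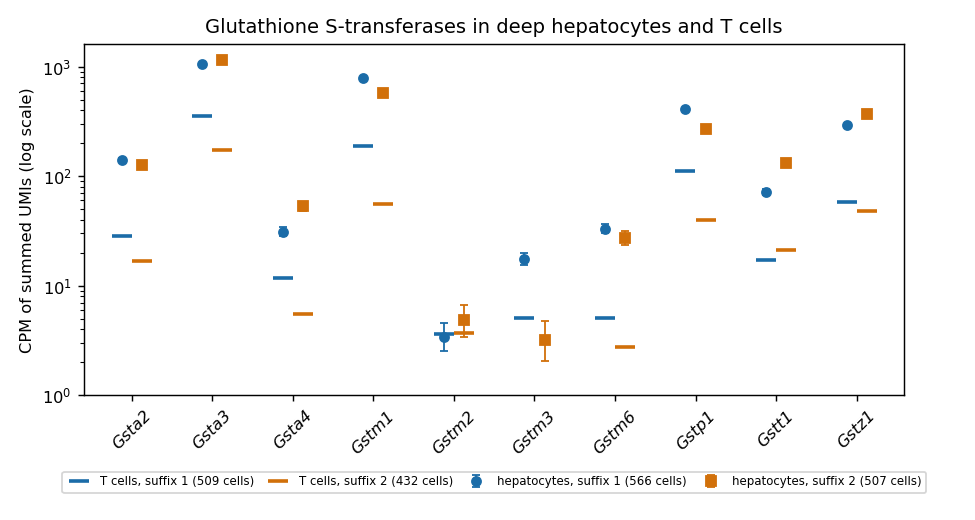
CPM of summed UMIs on a log scale for the 10 genes in deep hepatocytes (points, with 95% Poisson intervals) and in T cells (dashes, drawn where a UMI was counted), by barcode suffix. Gsta3 sits highest at 1060.5 and 1144.5 CPM, Gstm3 is the gene with the widest gap between the libraries, and Gstm2 is the gene whose points lie near the T cell dashes.

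Among the alpha class genes, Gsta3 (chr1:21240589-21265661, plus strand), an enzyme known in mice for detoxifying the aflatoxin epoxide, reached 1060.5 CPM (95% interval 1044–1078) with suffix 1 and 1144.5 CPM (1120–1169) with suffix 2. It was found in 566 of 566 and in 506 of 507 deep cells, and the middle 50% of cells ran from 772 to 1303 CPM and from 680 to 1668 CPM. At this depth the share is close to its ceiling. After thinning to 1000 UMIs, 64.8% and 63.3% of deep hepatocytes held a UMI of Gsta3, against 25.1% and 17.6% of T cells and 42.0% and 30.4% of B cells. Gsta3 overlaps Gm28836 on the other strand. Gsta2 (chr9:78331018-78355788), a stress-inducible alpha class enzyme, had 141 CPM (135–147) and 125 CPM (117–133), and 86.7% and 70.6% of deep cells held a UMI of it. Gsta4 (chr9:78182774-78209349), which takes hydroxynonenal, a product of lipid peroxidation, had 31.0 CPM (28.2–34.1) and 53.1 CPM (48.0–58.6). Gsta4 was higher with suffix 2, by 1.71-fold (1.49–1.96), while Gsta2 was higher with suffix 1 by 1.12-fold (1.04–1.22) and Gsta3 with suffix 2 by 1.08-fold (1.05–1.11). After the CPM of B cells was subtracted, the ratio of suffix 1 to suffix 2 was 0.238 for Gsta4 and 0.451 for Gsta3.

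The mu class held both an abundant gene and 3 low ones. Gstm1 (chr3:108012255-108017973), an enzyme of broad substrate range, had 789 CPM (775–804) with suffix 1 and 579 CPM (562–597) with suffix 2, a ratio of 1.36 (1.32–1.41). Gstm6 (chr3:107938847-107943749) had 33.1 CPM (30.2–36.3) and 27.3 CPM (23.7–31.4). The 2 lowest genes of the cluster, Gstm3 and Gstm2, behaved differently from each other.

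Gstm3 (chr3:107963696-107969283) was the one of the 10 furthest apart between the libraries. It had 248 UMIs in 566 cells with suffix 1, or 17.4 CPM (15.3–19.7), and 24 UMIs in 507 cells with suffix 2, or 3.22 CPM (2.06–4.79), a ratio of 5.41 (3.55–8.61). The ratio was 2.92 at a mitochondrial limit of 10%, and after the CPM of B cells was subtracted no CPM was left with suffix 1 and the gene was not called. Counted per cell, Gstm3 had 0.438 UMIs in deep hepatocytes and 0.0797 in B cells with suffix 1, so that outcome depends on the CPM scale. A UMI of Gstm3 was found in 28.3% and 4.34% of deep cells, at median depths of 26239 and 12785 UMIs, and in 5.80% (8 of 138) and 0 of 92 B cells, at 3726 and 3185.5 UMIs. After thinning to 1000 UMIs the shares were 2.47% (1.36–4.12) and 0.197% (0.00499–1.09) of deep cells. In B cells with suffix 1 the thinned share was 1.45% (0.176–5.14), an interval that holds the share of deep cells. Gstm3 was 1 of 9 members compared (those of at least 10 CPM in either library) and the only one at least 2-fold higher with suffix 1, against 2.42% of 6828 genes. It reached 10 CPM only with suffix 1, so it was compared only because it was high there. At least 2-fold higher with suffix 2 were 0 of the 9, against 2.11% of genes. The median ratio over all compared genes was 1.02, and over the 9 members the median log2 ratio was 0.17. In the library with suffix 1, Gstm3 had 17.8 CPM (8.90–31.9) in B cells, a level that could not be told apart from that of deep hepatocytes (ratio 0.976, 0.536–1.98).

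Gstm2 (chr3:107981702-107986453) was close to absent from deep hepatocytes, with 3.44 CPM (2.54–4.55) and 4.83 CPM (3.38–6.68). A UMI was counted in 42 of 566 and 29 of 507 deep cells. The interval of the ratio between the libraries, 0.454 to 1.13, spanned 1.

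Gstp1 (chr19:4035407-4037985), the pi class enzyme, also known as an inhibitor of JNK signalling, had 406 CPM (396–417) with suffix 1 and 269 CPM (257–281) with suffix 2, a ratio of 1.51 (1.44–1.59). A UMI was found in 95.9% and 85.2% of deep cells. In the reference transcripts, 91.2% of the 351 stretches of 50 bases at the 3' end of Gstp1 also occur in Gstp2 or in Gstp-ps, so its counts could be split among these copies. Gstp2 had 5.34 and 2.95 CPM in the same cells. Gsta2 shared 46.7% of its stretches with Gsta1 and related gene models, and the other 8 genes shared 1.14% or less. Gsta1 had 7.09 CPM with suffix 1 and 15.5 CPM with suffix 2.

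Gstt1 and Gstz1 were higher with suffix 2. Gstt1 (chr10:75783813-75798584), a theta class enzyme that conjugates small halogenated compounds, had 71.1 CPM (66.8–75.6) with suffix 1 and 131 CPM (123–139) with suffix 2, which was 1.84-fold higher (1.68–2.01). Gstz1 (chr12:87147165-87164723), maleylacetoacetate isomerase of the tyrosine pathway, had 291 CPM (282–300) and 372 CPM (358–386), 1.28-fold higher with suffix 2 (1.22–1.34). The gene overlaps Pomt2 and Gm6566 on the other strand. Of the 10, the order of the libraries turned for Gsta3 (1.34-fold higher with suffix 1) and Gstz1 (1.15-fold) without the mitochondrial limit, and for Gstm2 (1.44-fold) and Gsta3 (1.08-fold) with droplets from 2000 UMIs. It also turned for Gsta2, Gstp1 and Gstm6 after the CPM of B cells was subtracted, with ratios of suffix 1 to suffix 2 of 0.883, 0.797 and 0.0945.

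Other genes of the pathway were compared between the libraries in the same deep cells, where 2.42% of all genes were at least 2-fold higher with suffix 1 and 2.11% with suffix 2. Of 11 compared genes among 20 other family genes found, 0 were at least 2-fold higher with suffix 1, and 2, Gsta1 and Gstt3, were as far higher with suffix 2 (against 2.11%). Both reached 10 CPM only with suffix 2. Gstt3, of the theta class, had 12 UMIs (0.842 CPM) with suffix 1 and 77 UMIs (10.3 CPM) with suffix 2. Mgst1, the membrane-bound microsomal transferase and the most abundant of the 20, had 1154.5 CPM (1137–1172) and 2113 CPM (2080–2146), 1.83-fold higher with suffix 2. Gstp3 had 20.6 and 40.1 CPM.

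Of 20 compared genes among 27 for glutathione supply and use, 2 were at least 2-fold higher with suffix 2 (against 2.11%) and 0 with suffix 1. These were Glo1, the glyoxalase that uses glutathione (203 and 418 CPM), and Cbs, the first enzyme of transsulfuration (191 and 412 CPM). Gclc, the catalytic subunit of the enzyme that limits glutathione synthesis, had 118 and 232 CPM, 1.96-fold higher with suffix 2 (1.83–2.10), while its partner Gclm had 258 and 283 CPM. Of 14 compared genes among 20 NRF2 targets and regulators, Osgin1 (40.5 and 12.3 CPM) and Ces1g (355 and 141 CPM) were at least 2-fold higher with suffix 1 (2 of 14, against 2.42%) and Cbr1 (16.6 and 45.2 CPM) with suffix 2 (1 of 14, against 2.11%). The median log2 ratio of suffix 1 to suffix 2 was -0.41 for the other family genes, -0.11 for the glutathione genes and -0.0046 for the NRF2 list. Nfe2l2 itself had 33.3 and 33.8 CPM, and Keap1 had 33.1 and 31.9 CPM.

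Both the level of the genes and their ratio between the libraries differed with depth. The upper bound of a depth range is not included. Hepatocyte droplets below 5000 UMIs held the sum of the 10 genes, though not each of them, at a higher CPM than the deep cells. The sum was 4964 CPM at 500 to 1000 UMIs, 6363 CPM at 1000 to 2000 and 6978 CPM at 2000 to 5000 with suffix 1, and 3356, 4275 and 4095 CPM with suffix 2. Median mitochondrial share was between 1.06% and 3.81% in these droplets, against 16.7% and 15.7% in deep cells. Deep cells with at most 10% mitochondrial UMIs, 86 and 150 in number, had 5140 and 4710 CPM. The part of the mitochondrial share in this difference was not tested.

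At 500 to 1000 UMIs, 4 of 10 compared members were at least 2-fold above the deep level with suffix 1 (Gsta3, Gstm2, Gstm3 and Gstm6, against 3.29% of 6806 genes) and 0 were as far below, against 19.9%. With suffix 2 there were 2 of 10 above (Gstm2 and Gstm3, against 4.3% of 6815 genes) and 0 below, against 18.4%. At 1000 to 2000 UMIs the counts above were 6 of 10 with suffix 1 (against 6.33%) and 1 of 9, Gstm2, with suffix 2 (against 2.89%), with 0 below (against 20% and 15.1%). Gstm2 in both libraries and Gstm3 with suffix 2 reached 10 CPM only in the shallow droplets. Deep cells had 3.44 and 4.83 CPM of Gstm2, and 3.22 CPM of Gstm3 with suffix 2. These genes were thus compared only because they were high in the shallow droplets. Nearest to the deep level at 500 to 1000 UMIs were Gstz1 with suffix 1, at 1.06 times that level (0.983–1.14), and Gstp1 with suffix 2, at 1.01 times (0.883–1.14). Gstz1 with suffix 2, at 0.830 times (0.735–0.934), and Gstm1 with suffix 2, at 0.977 times (0.893–1.07), were the 2 values below the deep level.

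Counted per droplet, the shallow droplets held few molecules. Gsta3 had 1.85 and 1.29 UMIs per droplet at 500 to 1000 UMIs, against 3.33 and 1.72 per B cell, 1.89 and 0.873 per T cell, and 26.7 and 16.8 per deep hepatocyte. Gstp1 had 0.568 and 0.199 UMIs per droplet in the same stratum, against 1.11 and 0.272 per B cell. The shallowest droplets had a median of 831.5 and 719 UMIs and the B cells of 3726 and 3185.5, so these counts per droplet differ with depth. By CPM the order was the other way, with Gsta3 at 2261 and 1751 CPM in the shallowest droplets and 746 and 447 CPM in B cells. How far these droplets hold free RNA was not tested.

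**Figure D2:**
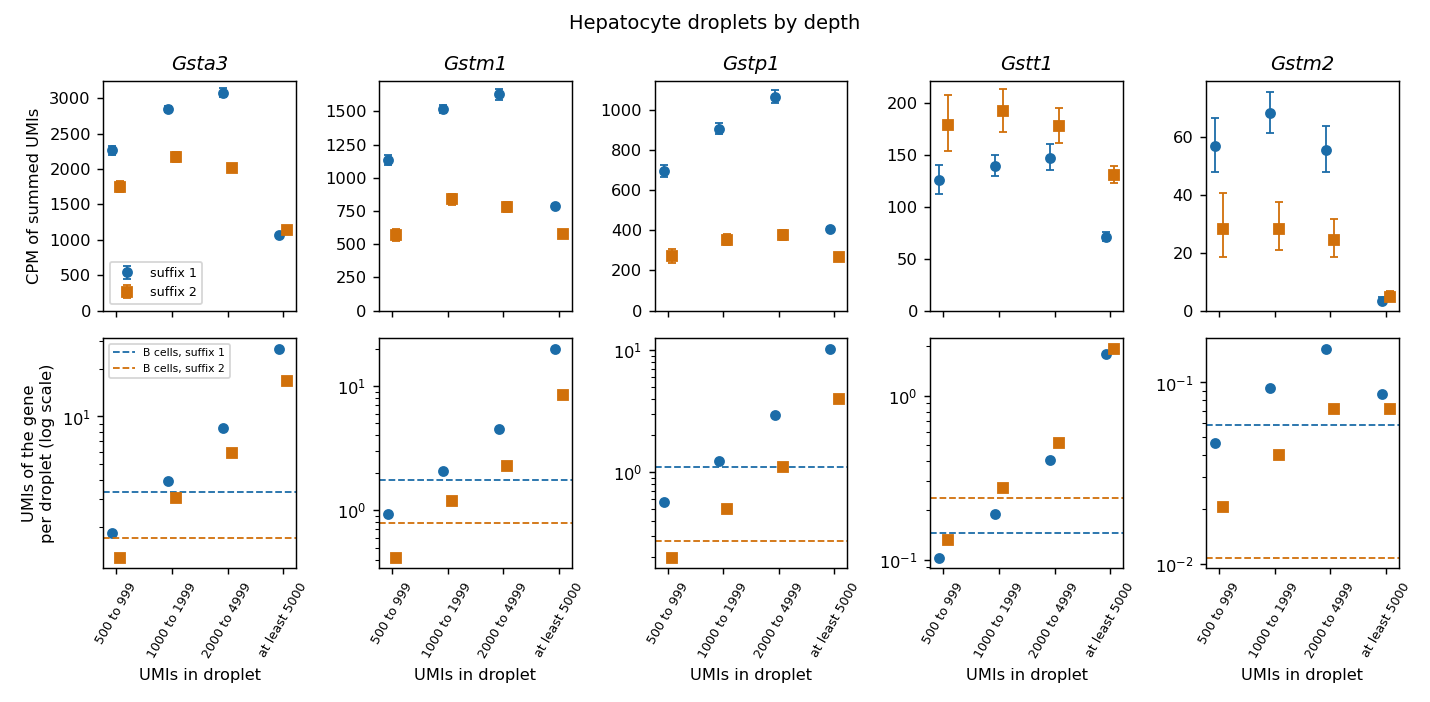
CPM of summed UMIs (upper row, with 95% Poisson intervals) and UMIs of the gene per droplet on a log scale (lower row, with the B cell level as a dashed line) in hepatocyte droplets of 4 depths, by barcode suffix. CPM is lower in deep cells than in the stratum before it for all 5 genes, while UMIs per droplet of Gsta3, Gstm1, Gstp1 and Gstt1 lie under the B cell line in the shallowest stratum and above it in deep cells.

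Gstm2 differed most with depth. It had 56.8 CPM (48.0–66.6), 68.3 CPM (61.5–75.6) and 55.4 CPM (47.9–63.7) in the 3 shallower strata with suffix 1, against 3.44 CPM in deep cells. With suffix 2 it had 28.0, 28.2 and 24.5 CPM, against 4.83 CPM. At 500 to 1000 UMIs that was 16.5-fold (11.9–23.3) and 5.81-fold (3.42–9.79) above the deep level. Markers of liver endothelial cells summed to 64.7 and 111 CPM in these shallowest droplets, with 10 of 10 markers detected and none at 0, against 23.2 and 33.1 CPM in deep cells. Stellate cell markers summed to 81.9 CPM (9 of 9 detected) and 163 CPM (8 of 9), against 11.7 and 14.6 CPM. Kupffer cell or macrophage markers (10 of 10 detected) summed to 237 and 348 CPM against 66.3 and 82.4 CPM, and erythroid markers (5 of 6) to 612 and 380 CPM against 228 and 156 CPM. Cholangiocyte markers were lower in the shallowest droplets, at 3.81 and 9.01 against 20.1 and 24.1 CPM. So were plasma cell markers, at 186 and 219 against 285 and 255 CPM. The part of other cell types in the Gstm2 level was not tested.

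For all 10 genes the ratio of suffix 1 to suffix 2 was larger in each of the 3 shallower strata than in deep cells. The median ratio over all compared genes was 1.03, 1.10 and 1.05 in these strata, against 1.02 in deep cells. Gsta3 turned in direction, from 0.93 in deep cells to 1.29 (1.22–1.36), 1.31 (1.26–1.36) and 1.53 (1.48–1.58) in the shallower strata. Gstz1 went from 0.78 (0.75–0.82) in deep cells to 1.00, 1.04 and 1.09 (1.00–1.18), and Gsta4 from 0.58 (0.51–0.67) to 0.89, 0.97 and 1.13 (0.95–1.35), so neither was lower with suffix 1 beyond counting error outside deep cells. Gsta2 had ratios of 1.38, 1.42 and 1.77 against 1.12, and Gstm6 of 1.56, 1.64 and 1.66 against 1.21. Gstm1, Gstm2, Gstm3 and Gstp1 were at least 2-fold higher with suffix 1 at 500 to 1000 UMIs, 4 of 10 compared, against 4.68% of 6157 genes. The count was 3 of 10 at 1000 to 2000 UMIs (against 4.05%), where Gstm1 was 1.81-fold higher, and again 4 of 10 at 2000 to 5000 UMIs (against 3.47%). As far higher with suffix 2 were 0 of 10 in each of these strata, against 4.9%, 3.39% and 9.63% of genes. Gstm3 had ratios of 6.53 (3.57–13.3), 9.91 (5.95–17.9) and 7.0 (4.56–11.3), and it was the only one of the 10 past 2-fold at all 4 depths. From 1000 UMIs up, Gstm3 reached 10 CPM only with suffix 1. Gstp1 had ratios of 2.57, 2.57 and 2.84 in the shallower strata, against 1.51 in deep cells. Gstt1 was lower with suffix 1 in all 4, with ratios of 0.70, 0.73, 0.83 and 0.54. Because droplets of these strata differ in mitochondrial share and in markers of other cells, depth and content cannot be told apart here.

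**Figure D3:**
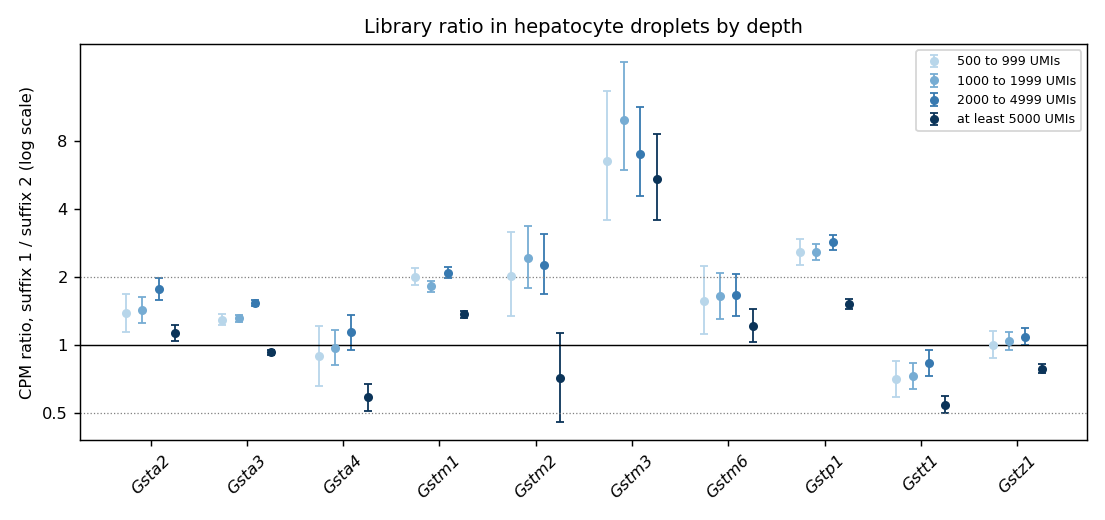
Ratio of CPM with suffix 1 to CPM with suffix 2 on a log scale, with exact 95% intervals, for the 10 genes in hepatocyte droplets of 4 depths (light to dark). The solid line marks 1 and the dotted lines 2-fold. Gstm3 lies above 2 at every depth, and Gstt1 lies below 1 at every depth.

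Within deep hepatocytes the genes were set along the axis of the liver lobule. Hepatocytes near the central vein and near the portal vein express different enzymes, and cells were ranked by the log2 ratio of 10 pericentral to 10 periportal marker genes and divided into 3 groups of equal size within each library, named periportal, middle and pericentral. The groups are ranges of a score, and 263 of 566 and 178 of 507 cells lay within 0.25 of a limit. The pericentral group began at a log2 ratio of -2.28 with suffix 1 and -2.10 with suffix 2. Cells just above these limits held more periportal than pericentral marker UMIs, so the group names are relative within a library. The markers themselves are not reported as results. Median depth was lower in the pericentral than in the periportal group, going from 29612 to 18839.5 UMIs with suffix 1 and from 18168 to 8603 UMIs with suffix 2, and median mitochondrial share went from 17.4% to 15.6% and from 16.6% to 13.2%. Their part in the differences below was not tested.

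Gsta3 was higher toward the pericentral end of the score in both libraries. It went from 897 CPM in the periportal group through 997 to 1374 CPM in the pericentral group with suffix 1. With suffix 2 it went from 847 through 1131 to 1645 CPM. The ratios of the outer groups were 1.53 (1.47–1.59) and 1.94 (1.84–2.05). Gstm1 went from 675 to 993 CPM, a ratio of 1.47 (1.40–1.54), and from 460 to 785 CPM, a ratio of 1.70 (1.59–1.83). Gstm6 had ratios of 1.68 (1.34–2.10) and 2.04 (1.45–2.89). Gstm2, on 1.49 and 7.07 CPM with suffix 1 and 2.22 and 10.3 CPM with suffix 2, had ratios of 4.75 (2.10–12.1) and 4.65 (1.89–13.02), and Gstm3 of 1.52 (1.12–2.06) and 3.26 (1.13–10.6). The alpha gene Gsta3 and the mu genes were thus the ones with the largest ratios.

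At least 1.5-fold higher in the pericentral group were 3 of 9 compared members with suffix 1 (Gsta3, Gstm3 and Gstm6, against 5.16% of 6937 genes) and 4 of 9 with suffix 2 (Gsta3, Gstm1, Gstm2 and Gstm6, against 9.28% of 6792 genes). Gstm2 with suffix 2 reached 10 CPM only in the pericentral group, at 10.3 against 2.22 CPM, and was compared only because it was high there. As far higher in the periportal group were 0 of 9 in either library, against 0.966% and 7.2%. Counting also Gstm2 with suffix 1 and Gstm3 with suffix 2, both under 10 CPM, gave 4 and 5 of 10. The shares of all genes above use the 10 CPM limit and do not apply to these counts. Also without the 10 CPM limit, the count with suffix 1 was 1 (Gstm2) with 2 groups in place of 3, and 2 (Gstm2 and Gstm6) without Cyp2e1 and Cyp2f2 in the score. The share of all genes was not computed for these settings. Gsta2 had ratios of 0.93 (0.83–1.04) and 0.80 (0.67–0.94), Gstp1 of 1.01 (0.95–1.08) and 1.19 (1.07–1.33), and Gstz1 of 1.08 and 1.19. Gsta2 was the only one of the 10 lower in the pericentral group in both libraries, with an interval that spanned 1 with suffix 1.

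**Figure D4:**
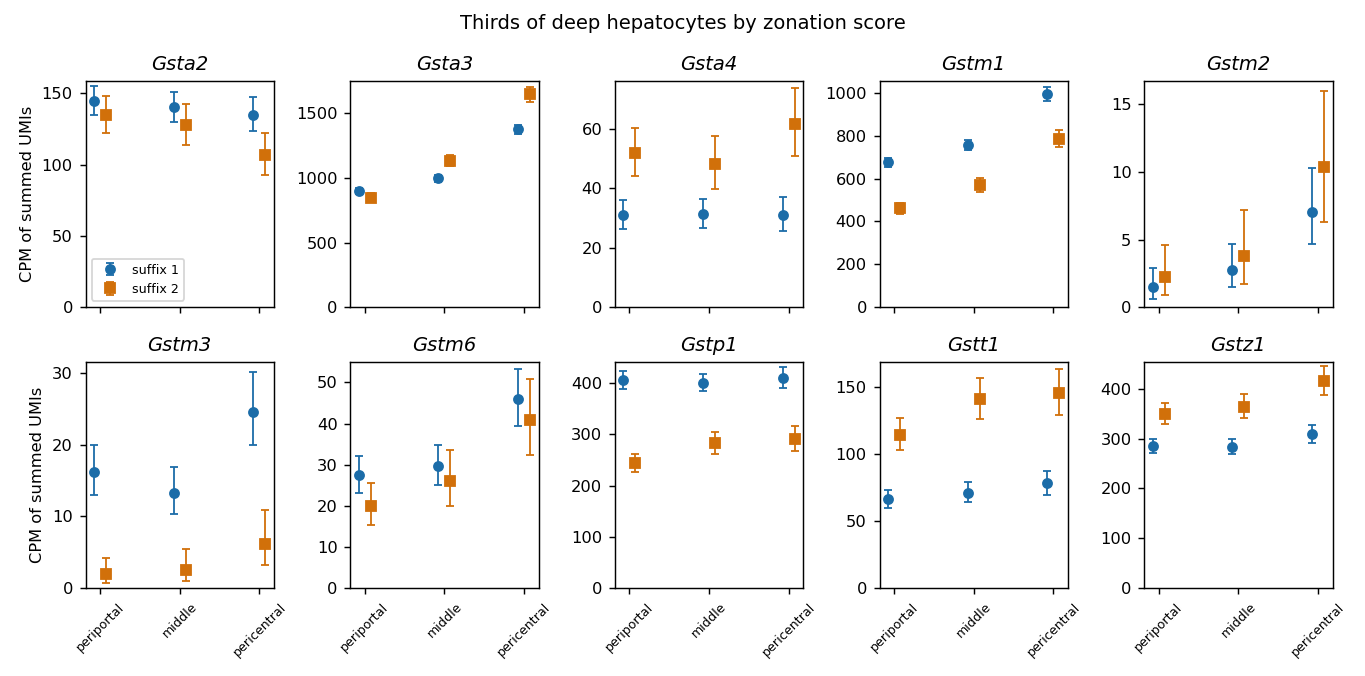
CPM of summed UMIs with 95% Poisson intervals for the 10 genes in the periportal, middle and pericentral groups of deep hepatocytes, by barcode suffix. Gsta3, Gstm1, Gstm2 and Gstm6 are highest in the pericentral group in both libraries, and Gstp1 with suffix 1 stays between 401 and 411 CPM.

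Between single deep cells, each thinned to 5000 UMIs, the genes closest to a member by Pearson correlation were looked up among 1930 genes. The r values are means over the 2 libraries (566 and 507 cells) and a description with no test, since the cells of a library share its preparation. Depth was made equal but mitochondrial share was not. Gsta3 was closest to Prdx1, a peroxiredoxin (r = 0.50), Akr1c6, an aldo-keto reductase (0.49), and Cyb5a, cytochrome b5 (0.46). Gstp1 was closest to Ttc36 (0.46), the glycolytic gene Gapdh (0.45) and the ATP synthase gene Atp5h (0.43). Gstm1 was closest to Prdx1 (0.34), Gsta3 (0.34) and Dbi (0.33), and Gsta2 to Sds (0.32) and Gnmt (0.32). No gene reached 0.3 for Gstt1 or Gstz1, and Gsta4, Gstm2, Gstm3 and Gstm6 had too few UMIs. Between members, Gsta3 and Gstp1 had r of 0.34 and 0.35 in the 2 libraries, Gsta3 and Gstm1 0.33 and 0.34, and Gstt1 and Gstz1 -0.0052 and 0.0026.

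Other cell types were gated by markers and set against T cells, which are not known for making Gsta3 or the other liver forms in quantity. Deep hepatocytes were at least 2-fold above T cells in 9 of 9 compared members with suffix 1 (against 19.5% of 9258 genes) and in 8 of 8 with suffix 2 (against 20% of 9293 genes), with 0 as far below (against 46.8% and 47.6%). With suffix 1 the ratios of those genes ran from 2.65 (Gsta4) to 6.48 (Gstm6), and with suffix 2 from 6.13 (Gstt1) to 10.4 (Gstm1). Gstm3 and Gstm6 with suffix 1, and Gsta4 and Gstm6 with suffix 2, reached 10 CPM only in deep hepatocytes. Gstm2 was under 10 CPM in both cell types and was not compared. The complete counts therefore rest in part on this limit. Against B cells, a comparison added after seeing the data, fewer were as far above: 4 of 10 with suffix 1 (Gsta2, Gstm1, Gstt1 and Gstz1, against 18.5% of 8914 genes) and 7 of 8 compared with suffix 2 (not Gstm6, against 19.7% of 9091 genes). As far below B cells were 1 of 10 with suffix 1 (Gstm2, against 43%) and 0 of 8 with suffix 2 (against 46.1%). Gstm2 with suffix 1 reached 10 CPM only in B cells. With suffix 1, Gsta3 was 1.42-fold (1.30–1.56) and Gstp1 1.64-fold (1.39–1.93) above B cells, and the ratios of Gsta4, Gstm3 and Gstm6 had intervals that spanned 1. Gstm2 had 3.44 CPM against 3.65 CPM in T cells with suffix 1. With suffix 2 it had 4.83 CPM (3.38–6.68) against 3.71 CPM (1.60–7.32), intervals that overlapped. No UMI of Gstm3 was counted in 432 T cells with suffix 2, which allows up to 1.39 CPM.

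Members were counted in all immune types. Their sum ran from 546 CPM in Kupffer cells or macrophages to 1673 CPM in B cells with suffix 1, and from 221 CPM in plasma cells to 922 CPM in B cells with suffix 2, over 8 immune types in each library. Thinned to 1000 UMIs, 46.6% (42.2–51.0) of 509 T cells and 31.7% (27.3–36.3) of 432 T cells held a UMI of any member, against 92.6% and 88.0% of deep hepatocytes. Without thinning the T cell shares were 91.4% and 76.6%, at median depths of 4685 and 4312.5 UMIs.

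The immune types differed in these levels, also when set against Alb. Per 1000 Alb UMIs, the 10 genes together had 84.9 UMIs in T cells, 152 in B cells and 72.3 in Kupffer cells or macrophages with suffix 1, against 73.7 in deep hepatocytes and 116 to 285 in the 3 shallower strata. With suffix 2 they had 37.8, 84.2 and 35.7, against 65.3 in deep hepatocytes and 80.1 to 119 in the shallower strata. B cells thus held more of these genes per Alb UMI than T cells in both libraries. The source of this RNA was not tested.

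Among the gated types, liver endothelial cells had the highest Gstm2 level in both libraries. The gated cells, 91 with suffix 1 and 85 with suffix 2, held 10 of 10 endothelial markers, with Stab2 at 2685 and 1829 CPM. Gstm2 had 27 UMIs, or 49.4 CPM (32.6–71.9), and 24 UMIs, or 56.4 CPM (36.1–83.9), in them. That was 13.5-fold (6.35–31.3) and 15.2-fold (6.60–39.1) above T cells of the same library. With suffix 1 other types lay above T cells too, with Gstm2 at 23.5 CPM (6.39–60.1, on 4 UMIs) in neutrophils, an interval that overlaps the endothelial one, and with intervals of 4.57 to 32.8 CPM in NK cells or ILC1 and 5.60 to 25.6 CPM in B cells. The shallow hepatocyte droplets of that library, at 55.4 to 68.3 CPM, were as high as or above the endothelial cells, and those with suffix 2, at 24.5 to 28.2 CPM, were lower. Per 1000 Alb UMIs, Gstm2 had 5.47 and 5.54 UMIs in endothelial cells against 0.398 and 0.381 in T cells and 0.0891 and 0.116 in deep hepatocytes. On the same scale it had 1.94 UMIs in neutrophils with suffix 1, and 1.33, 2.16 and 2.26 UMIs in the shallower strata with suffix 1 and 0.669, 0.763 and 0.714 with suffix 2. After thinning to 1000 UMIs, 5.49% (5 of 91) and 9.41% (8 of 85) of endothelial cells held a UMI, against 0.393% of T cells with suffix 1 and 0 of 432 T cells with suffix 2. Without thinning, 8 UMIs were counted in the latter.

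At least 2-fold above T cells in endothelial cells were 2 of 9 compared members with suffix 1 (Gstm2 and Gstm3, against 25.4% of 10051 genes) and 3 of 8 with suffix 2 (Gsta4, Gstm1 and Gstm2, against 27.3% of 10016 genes). With suffix 1 Gsta4 was as far below T cells (1 of 9, against 17.4%), on 3 UMIs, and with suffix 2 no member was (0 of 8, against 18.9%). These shares lay near the share of all genes. Of the members named here, Gstm3 and Gsta4 rested on 3 to 8 UMIs in endothelial cells and had ratio intervals of 1.04 to 7.31 (Gstm3, suffix 1) and 0.98 to 8.13 (Gsta4, suffix 2). Gstm1 had 278 and 186 CPM in endothelial cells, 1.48-fold (1.22–1.77) and 3.33-fold (2.47–4.46) above T cells.

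**Figure D5:**
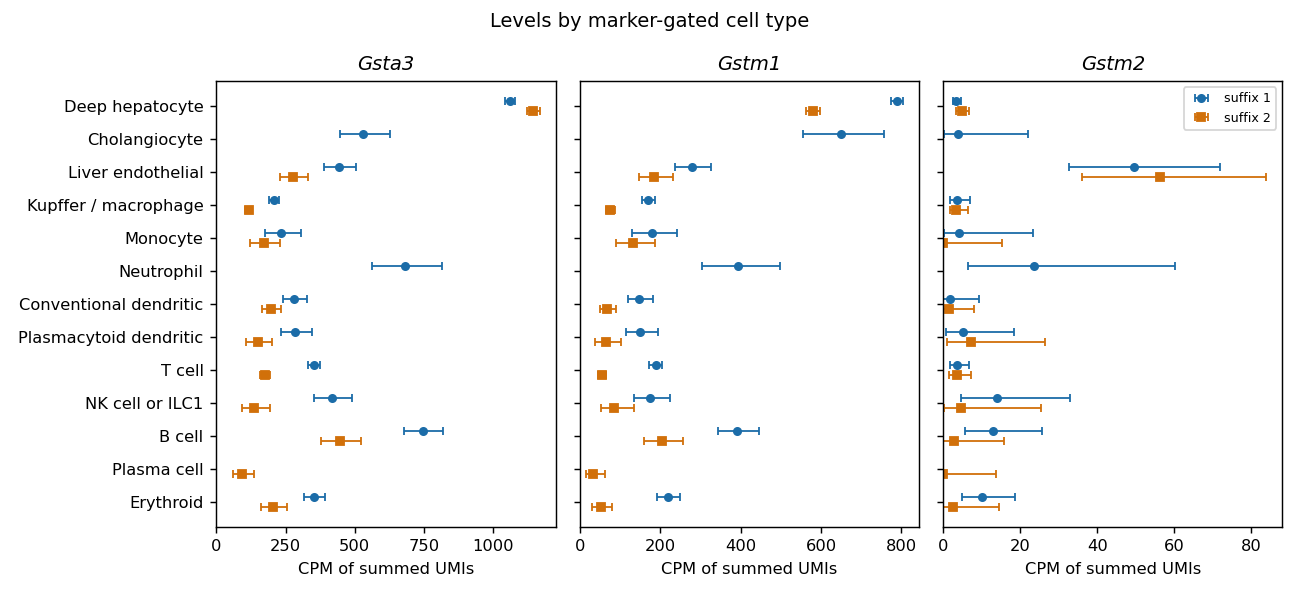
CPM of summed UMIs with 95% Poisson intervals for Gsta3, Gstm1 and Gstm2 in deep hepatocytes and gated cell types, by barcode suffix; a type with fewer than 20 cells in a library has no point. Gsta3 and Gstm1 are highest in deep hepatocytes, and of the types plotted Gstm2 is highest in liver endothelial cells in both libraries, where the neutrophil interval with suffix 1 overlaps theirs.

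Cholangiocytes passed the gate in number only with suffix 1, as 24 cells with 6 of 7 markers detected and Krt19 at 346 CPM. They had 649 CPM of Gstm1 (554–756), near the 789 CPM of deep hepatocytes and above the highest immune type, 393 CPM in neutrophils. Gstt1 had 118 CPM (79.6–169) in them on 30 UMIs, against 71.1 CPM in deep hepatocytes and 70.4 CPM (36.4–123) in neutrophils, whose interval overlapped theirs. Per 1000 Alb UMIs, Gstm1 had 59.1 UMIs and Gstt1 10.7 in cholangiocytes, against at most 35.6 (B cells) and 5.82 (neutrophils) in an immune type of that library. Gsta3, at 531 CPM (445–629), lay below its 746 CPM in B cells. The cells came from 1 library, so no spread between samples can be given.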

How the data were processed

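Livers were perfused and digested, cells were purified on 35% Percoll, and each sample was captured on its own lane with 10x Genomics 3' v3.1 chemistry. The deposited values are whole-number UMI counts, 1 for each gene in each barcode. Cell Ranger 7.1.0 is named in the file header. The labels also list STAR 2.7.2a, bcl2fastq 2.20.0 and mm10. For annotation, cell calling, intronic reads and any thinning at joining, nothing is stated in the sources used here. The totals were 60048646 UMIs with suffix 1 and 52355243 with suffix 2. A count of 0 allows up to 3 UMIs.

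Droplets were kept with at least 500 UMIs, 200 detected genes and at most 25% mitochondrial UMIs. A gate for 1 of 13 other cell types needed 3 markers and 0.1% of UMIs. Assignment to that type also needed under 5% hepatocyte marker UMIs and 2000 UMIs. Droplets that passed a gate but were not assigned (772 and 782) were left out. They passed more than 1 gate, had fewer than 2000 UMIs or were hepatocyte mixtures. Droplets that passed no gate and were not hepatocytes (344 and 115) were left out too. These thresholds were set after the values were seen. No doublet caller was run. Summed UMIs of a class are expressed as CPM, with exact Poisson 95% intervals. Ratios have exact conditional binomial intervals, and shares have Clopper-Pearson intervals. A member counted as apart at 2-fold (1.5-fold between zonation groups), among genes of at least 10 CPM on either side. Correlations of at least 0.3 were named, up to 3 per gene, for genes of at least 0.25 UMIs per thinned cell. All 10 members are named, and other genes come from lists of family genes, glutathione genes and NRF2 targets. The members and lists were chosen with earlier results of these data known. Scripts were tested on simulated data. Python 3.11.15, numpy 2.4.6, scipy 1.17.1 and pandas 2.3.3 were used. Positions are from GENCODE release M21 (GRCm38), in which all 10 IDs were found.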

Additional observations from a re-analysis of the deposited data

Results flagged for a closer look

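Droplets over the mitochondrial limit of 25%, 5675 with suffix 1 and 8886 with suffix 2, entered no level or count in the report other than those given at a mitochondrial limit of 50% or with no limit. They held the 10 genes at a sum of 1088 CPM with suffix 1 and 645 CPM with suffix 2, above what a count of 0 allows. Gsta3 had 491 CPM (481 to 501) and 313 CPM (306 to 320) in them, at 1.60 and 0.930 UMIs per droplet. Their content was not assigned to a cell type.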

How the results depend on the processing

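The sum of the 10 genes in deep hepatocytes depended on most settings. In CPM, with suffix 1 and suffix 2, it was 5140 and 4710 at a mitochondrial limit of 10%, 2699 and 2462 at 50%, and 2377 and 1579 with no limit. It was 2734 and 2520 with deep cells from 10000 UMIs, 3670 and 3043 from 2000 UMIs, 3171 and 3029 as a mean over cells, and 3175 and 3021 after thinning to 5000 UMIs. It was 3406 and 3188 with mitochondrial UMIs left out of the total, 3179 and 3053 with hepatocyte marker UMIs left out, and 1171 and 1787 after subtracting the CPM of B cells. A hepatocyte marker share of at least 8%, an alternative chosen after seeing the data, gave 2777 and 2605. The first was the higher of the pair in all of these but the B cell subtraction.

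The count of members at least 2-fold apart, 1 (Gstm3), became 2 without a mitochondrial limit (with Gstp1), 2 after thinning (with Gsta4), 4 at 1.5-fold (with Gsta4, Gstp1 and Gstt1), and 3 after B cell subtraction (Gsta3, Gsta4 and Gstm6), where Gstm3 had no CPM above B cells with suffix 1. The share of all genes was not computed under these alternatives, so it is not known whether genes in general shifted as much. Members past 1.5-fold between the periportal and pericentral groups with suffix 1 went from 4 to 1 with 2 groups in place of 3, and to 2 without Cyp2e1 and Cyp2f2. The share of T cells with a UMI of any member was 29.7% and 15.7% after thinning to 500 UMIs, and 91.4% and 76.6% without thinning. Of 118 recomputed log2 ratios of single members, 83 stayed within the 95% counting interval of the reported ratio and 35 did not. Leaving out droplets with any lymphoid or myeloid marker UMI was not run, since too few deep cells remained. No paired analysis was possible because no label ties a barcode suffix to a sample. No replicate could be left out. Where a cause of these shifts is not given by the setting itself, the cause was not tested. With 1 library per suffix, differences between animals or preparations cannot be told apart from those between genotypes.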
